A study of Mus musculus with 2 samples.

Results

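The neuronal intermediate filament genes are Ina, Nefl, Nefm, Nefh and Prph, taken by matching their Ensembl identifiers in the gene and transcript tables to symbols. All 5 genes were found among 43346 Ensembl genes, and they hold 7 of the 129984 rows of the transcript tables. They were measured in 1 group of 2 total RNA libraries, labelled as biological replicates 1 and 2. Each library was made from hindbrain of healthy B6NCrl mouse embryos, males and females pooled, at embryonic day 13.5, from 10 ng of RNA longer than 200 nt with synthetic spike-in RNAs added. Both libraries carry 1 donor label and differ in their biosample label, so their spread may be partly technical. There is no second group, and the comparisons are between genes of the tissue and between the libraries. Whole hindbrain mixes neurons with progenitors, glia, vessels and attached tissue, so a level is an average over these cells.

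Intermediate filaments are rope-like polymers that give axons mechanical strength, and in large axons they set the calibre. Nefl encodes the light neurofilament subunit, the core on which the filament is built. Nefm and Nefh encode the medium and heavy subunits, whose long tails carry Lys-Ser-Pro repeats that are phosphorylated and project from the filament. Ina encodes alpha-internexin, known as an early filament protein of central neurons, and Prph encodes peripherin, known from neurons with axons in the periphery, such as sensory ganglion neurons and motor neurons. In rodent development internexin and the light and medium subunits are known to appear early in axon growth and the heavy subunit late.

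Ina and Nefl, the most abundant members, have an exon of 125 bases each in the coding sequence of the helical rod. It is shown because it gives the sequence relation of these type IV genes in 1 piece. The exons were read 5' to 3' from the GENCODE M21 transcripts on GRCm38, the build that mm10 names, and capitals mark the 95 positions that are identical in both (76%).
Ina, exon 2, plus strand, chr19:47021833-47021957: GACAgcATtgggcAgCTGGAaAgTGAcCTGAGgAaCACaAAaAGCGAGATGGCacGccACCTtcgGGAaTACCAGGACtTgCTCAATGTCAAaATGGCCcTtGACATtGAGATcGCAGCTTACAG
Nefl, exon 2, plus strand, chr14:68085974-68086098: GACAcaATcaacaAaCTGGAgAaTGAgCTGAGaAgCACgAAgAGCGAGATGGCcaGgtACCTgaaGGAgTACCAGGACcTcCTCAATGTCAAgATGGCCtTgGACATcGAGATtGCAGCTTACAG
Ina-201 and Nefm-201 have 3 exons, and Nefl-201 and Nefh-201 have 4. Prph, a type III gene like the progenitor filament gene Vim, has 9 exons in Prph-201 and none of 125 bases. The reading frames differ mainly in tail length, with 501 codons in Ina, 543 in Nefl, 848 in Nefm-201, 1090 in Nefh and 475 in Prph-201. In-frame Lys-Ser-Pro codons numbered 51 in Nefh and 4 in Nefm-201, and there were none in Ina, Nefl or Prph.

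The reads assigned to Ensembl genes totalled 32314725 estimated counts in replicate 1 and 37772709 in replicate 2. A level of 1 TPM or more (a relative transcript abundance, in which reads are divided by transcript length and scaled to 1 sum in each library) in both libraries was called detected, and 15342 genes met this. The hindbrain label was set beside 6 genes of hindbrain identity, all detected at 33.4 to 173 TPM, and 4 forebrain genes, none of which was detected, at 0.055 to 0.75 TPM. These genes were chosen with earlier results of the data known, so they are no independent check of the label.

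Ina, Nefl and Nefm were the abundant members, each at 298 TPM or more, Prph was lower and Nefh was the lowest. Ina (ENSMUSG00000034336.3, chromosome 19, 47014698 to 47025327, plus strand) had 555.8 TPM in replicate 1 and 571.4 in replicate 2, a mean of 563.6 ± 11.03 (SD, n = 2). Nefl (ENSMUSG00000022055.7, chromosome 14, 68083863 to 68089095, plus strand) had 506.0 and 505.1 TPM in replicates 1 and 2, a mean of 505.6 ± 0.672 (SD, n = 2). The TPM of Ina thus stood above that of Nefl in both libraries. Nefm (ENSMUSG00000022054.7, chromosome 14, 68082590 to 68124846, minus strand) had 298.3 and 298.7 TPM, a mean of 298.5 ± 0.29 (SD, n = 2). Prph (ENSMUSG00000023484.9, chromosome 15, 99055174 to 99058978, plus strand) had 48.4 and 60.2 TPM, a mean of 54.3 ± 8.33 (SD, n = 2). Nefh (ENSMUSG00000020396.8, chromosome 11, 4938754 to 4948064, minus strand) had 2.55 and 2.76 TPM, a mean of 2.66 ± 0.148 (SD, n = 2). Nefh was detected, but it lay below the median of 16.1 TPM of the detected genes, which the other 4 exceeded. All 5 genes are annotated as protein coding.

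**Figure D1:**
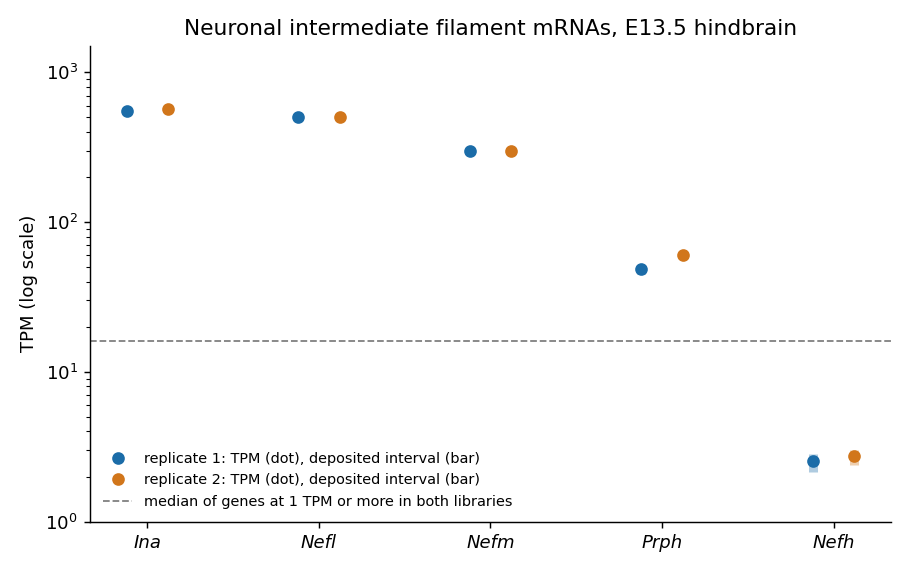
TPM of the 5 genes on a log axis in replicate 1 (blue) and replicate 2 (orange), with the deposited interval of each library as a pale bar that is visible only where it exceeds the dot, and the median of 16.1 TPM of detected genes as a dashed line. The order is Ina, Nefl, Nefm, Prph and Nefh in both libraries, and Nefh alone lies below the dashed line.

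Every step in this order was larger than the spread between the libraries. That spread does not measure a bias that a gene carries in both libraries, which matters most for the small steps. Ina exceeded Nefl 1.11 ± 0.0233-fold (SD, n = 2), the smallest step, or by 0.16 ± 0.0301 as a log2 ratio of TPM + 1. Nefl exceeded Nefm 1.69 ± 0.0039-fold and Nefm exceeded Prph 5.56 ± 0.847-fold (SD, n = 2). Prph exceeded Nefh 20.4 ± 2.00-fold (SD, n = 2), the widest step in TPM. In CPM, which is not divided by length, the widest step was that of Nefm over Prph, a log2 ratio of 3.39 against 2.96 for Prph over Nefh. For each of the 4 neighbouring pairs the mean log2 ratio was over 2 SD from 0 and the deposited TPM intervals were disjoint in both libraries. No file gives their level. They surround a posterior mean, so that the TPM of Ina, Nefl and Nefm lies above its own interval, and their posterior mean TPM values were 549.3, 492.7 and 290.95. With 2 libraries no permutation test between genes was run.

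Within the neurofilament triplet the heavy subunit was scarce. Nefl exceeded Nefh 191 ± 10.9-fold and Nefm exceeded Nefh 113 ± 6.19-fold in TPM (SD, n = 2). The Nefl to Nefm ratio was 1.70 in replicate 1 and 1.69 in replicate 2, the closest agreement of any neighbouring pair. Of the summed level of the 5 genes, 1425 ± 19.1 TPM, Ina made up 39.6% ± 0.243, Nefl 35.5% ± 0.524 and Nefm 20.95% ± 0.261 (SD, n = 2). Prph made up 3.81% ± 0.534 and Nefh 0.186% ± 0.00792 (SD, n = 2). Ranked by mean TPM among the 25551 genes that had any count, Ina was number 193, Nefl 227, Nefm 490, Prph 3269 and Nefh 13255. The median of those genes was 3.175 TPM, above the mean of Nefh. By mean CPM, which is not divided by length, Ina was number 62, Nefl 66, Nefm 126, Prph 4298 and Nefh 11678. At a mean percentile of 54.3 in CPM, Nefh lay above the middle of the same genes.

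The counts behind these levels differ widely. Ina had 36056 estimated counts in replicate 1 and 43783 in replicate 2, Nefl 34293 and 40429, and Nefm 19967 and 23610. Prph had 1679 and 2466 counts. Nefh rested on 205 counts in replicate 1, with a 95% exact Poisson interval of 178 to 235, and 262 in replicate 2, with an interval of 231 to 296. Both intervals cover counting error only, since PCR copies of 1 molecule are counted as separate reads where no molecular identifier marks them. The deposited TPM intervals of Nefh were 2.15 to 2.82 and 2.38 to 3.03 in replicates 1 and 2 and overlap. The deposited posterior SD of the counts was 0 for Nefh and for Prph in both libraries, whereas it was above 0 for the other 3 genes.

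Ina, Nefl and Nefm overlap other genes on the opposite strand, and the strand setting of the counting is not given in the sources used here. Nefm-202, the longer transcript of Nefm, ends in an exon of 2381 bases, of which 1108 are also exon 1 of Nefl read the other way (chromosome 14, 68083863 to 68084970). The first 60 bases of that Nefm-202 exon and the Nefl bases of the same span are exact reverse complements, shown because reads from here can be placed on either gene if strand is not used.
Nefm-202, exon 4, minus strand, chr14:68084911-68084970: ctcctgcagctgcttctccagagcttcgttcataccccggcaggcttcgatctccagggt
Nefl-201, exon 1, plus strand, chr14:68084911-68084970: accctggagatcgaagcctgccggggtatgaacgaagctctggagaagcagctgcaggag
The posterior SD of the counts was the same in Nefl and Nefm, 18.76 in replicate 1 and 18.77 in replicate 2. Ina shares 456 exon bases with Nt5c2, a nucleotidase gene on the opposite strand (chromosome 19, 47014698 to 47015153). Its posterior SD matched that of Nt5c2 as well, 17.97 in replicate 1 and 20.3 in replicate 2. These SDs are small beside the counts of Ina, Nefl and Nefm. The levels of the 3 genes may still hold reads of the opposite strand, and how many was not tested.

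Of the 5 genes, Nefm and Prph have 2 transcripts each in the tables and the others have 1. Nefm-201, the transcript with the full tail, carried 98.3% of the Nefm TPM in replicate 1 and 98.5% in replicate 2. Nefm-202, whose reading frame has 470 codons and no Lys-Ser-Pro repeat, carried 1.72% and 1.46%. Nefm-202 had 5.13 TPM in replicate 1, with an interval of 3.91 to 6.25, and 4.35 TPM in replicate 2, with an interval of 3.41 to 5.29. The intervals overlap, and 30.1% of the transcript lies in the stretch shared with Nefl, so that its level is uncertain. Whether any Nefm-202 was made was not tested.

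Prph-201, the main peripherin transcript, carried 91.55% of the Prph TPM in replicate 1 and 90.96% in replicate 2, and Prph-202 carried 8.45% and 9.04%. Prph-202 differs by keeping intron 4 of Prph-201, 96 bases that add 32 codons to the reading frame without an in-frame stop, which makes 507 codons in all. The segment is shown because it is what separates the reading frames of the transcripts (chr15:99056937-99057032, plus strand, GENCODE M21), in capitals with 15 bases of the flanking exons on each side in lower case.
Prph-202, exon 4: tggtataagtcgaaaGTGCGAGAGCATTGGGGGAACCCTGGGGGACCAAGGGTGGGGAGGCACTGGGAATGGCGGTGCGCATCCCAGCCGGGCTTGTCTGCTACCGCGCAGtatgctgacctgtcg
Prph-202 had 4.09 TPM on 149 counts in replicate 1, with an interval of 2.37 to 6.004, and 5.44 TPM on 234 counts in replicate 2, with an interval of 3.64 to 7.48. These intervals overlap, so the transcript's level did not separate the libraries. Prph-201 had 44.4 TPM in replicate 1 (interval 40.1 to 45.8) and 54.8 in replicate 2 (interval 50.4 to 56.3), and its intervals are disjoint. In a table of this kind, Prph RNA in which only intron 4 is not yet spliced and a mature transcript that keeps it cannot be told apart. The deposited transcripts are 1769 and 1865 bases long, against 1757 and 1863 in GENCODE M21, and the 96-base difference of the deposited lengths is the length of this segment.

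**Figure D2:**
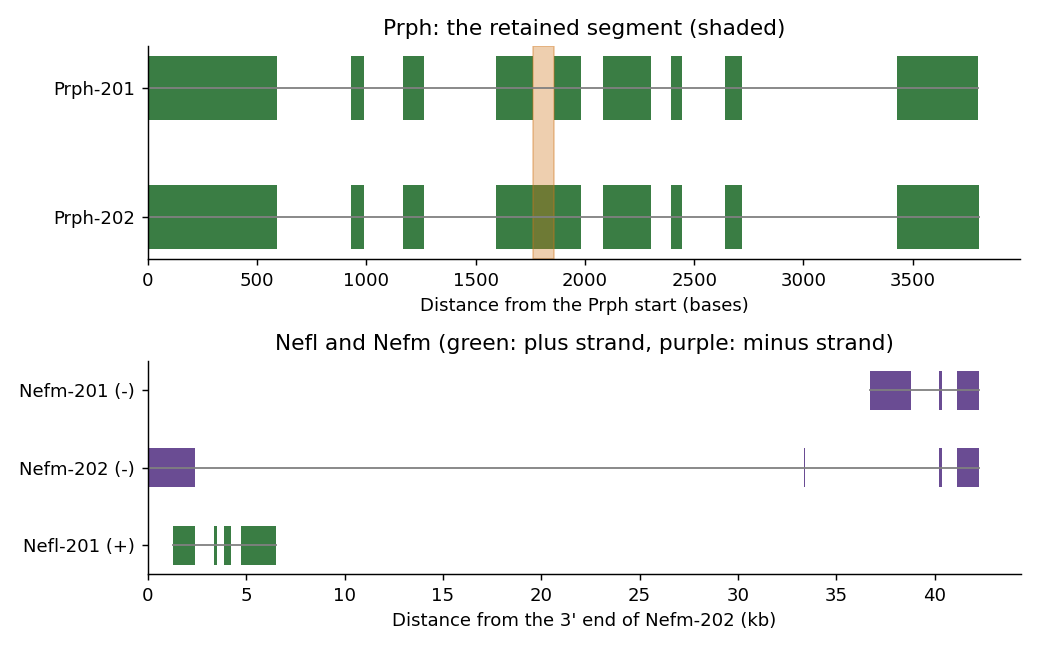
Exons (blocks) and introns (lines) of the Prph transcripts by distance from the gene's start in bases, with the retained segment shaded, and of Nefl and Nefm by distance from the 3' end of Nefm-202 in kb. Prph-202 fills the shaded 96 bases that Prph-201 splices out, and the last exon of Nefm-202 lies over exon 1 of Nefl on the other strand.

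**Figure D3:**
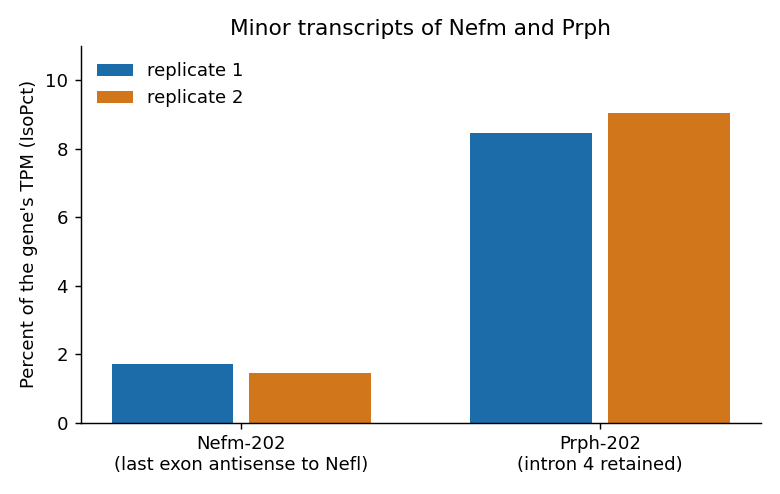
Percent of the gene's TPM carried by Nefm-202 and Prph-202 in replicate 1 (blue) and replicate 2 (orange), on a linear axis from 0. Nefm-202 stays at 1.72% and 1.46%, and Prph-202 at 8.45% and 9.04%.

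Between the libraries, Prph was lower in replicate 1 and Nefl and Nefm differed by less than the test could call. An exact two-sided binomial test of each gene's counts, with libraries scaled by TMM and Benjamini-Hochberg adjustment over 19687 genes, compared these libraries against counting error and not conditions. It called 2 of the 5 genes, Prph and Ina, both lower in replicate 1, where it called 12.6% of all genes tested and 7.07% as lower in replicate 1. Of the genes with 1000 counts or more over both libraries, as 4 of the 5 have, 16.5% were called. For Prph the log2 ratio of replicate 1 over replicate 2 was -0.33 (95% Clopper-Pearson interval -0.43 to -0.24; adjusted p = 1.46e-11, exact test), a level of 0.793-fold. Only 1.14% of the 5280 genes within 2-fold of its counts had a log2 ratio at least as far from 0. For Ina the log2 ratio was -0.06 (interval -0.08 to -0.04; adjusted p = 2.08e-07, exact test). Of the 124 genes with counts within 2-fold of those of Ina, 58.1% were called and 29.8% had a ratio at least as far from 0, so the Ina call is near the background for its depth. Nefl had a log2 ratio of -0.02 (interval -0.04 to 0.0031; adjusted p = 0.306, exact test) and Nefm -0.02 (interval -0.05 to 0.0052; adjusted p = 0.339, exact test). Nefh, at -0.13, had an interval of -0.40 to 0.14 (adjusted p = 0.61, exact test), wide enough to hold the Prph ratio.

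**Figure D4:**
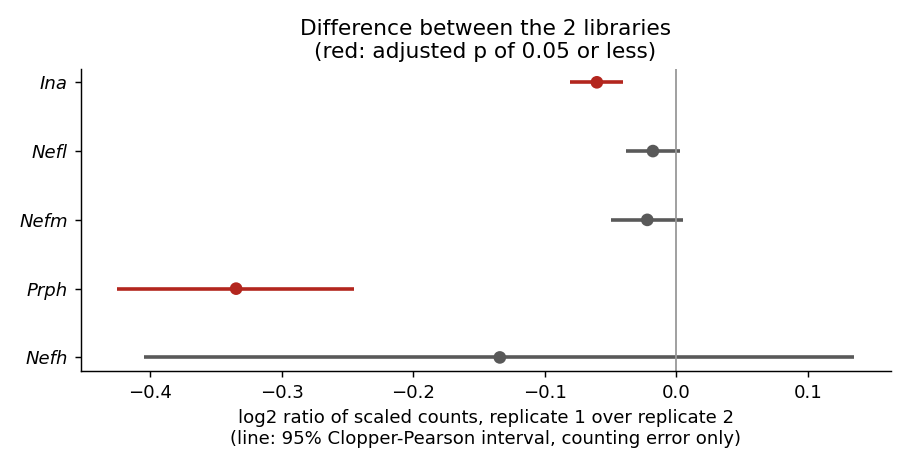
Log2 ratio of scaled counts, replicate 1 over replicate 2, with its 95% Clopper-Pearson interval, for each of the 5 genes, in red where the adjusted p was 0.05 or less. Prph at -0.33 and Ina at -0.06 lie left of 0 with their intervals, while the intervals of Nefl, Nefm and Nefh include 0.

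Genes of the neurons and glia that accompany peripherin were set beside this difference. Over all genes tested 12.6% were called, and of genes with 1000 counts or more 16.5%. In bulk tissue, fewer cells of a type and less RNA per cell cannot be told apart. Of 10 sensory ganglion genes 6 had a lower TPM in replicate 1, and the list summed to 222 TPM in replicate 1 and 233 in replicate 2. The test called 3 as lower and 1 as higher. Those called lower included the transcription factor gene Tlx3, at 16.4 TPM in replicate 1 and 23.6 in replicate 2 (exact test, adjusted p = 2.29e-09). Tlx3 and Lhx3 were singled out after their values were seen. Pou4f1, a transcription factor gene and the highest of the sensory ganglion list, had 68.2 and 67.5 TPM in replicates 1 and 2 and did not pass the test. Levels of whole hindbrain do not tell whether ganglion neurons or neurons of the hindbrain itself held the RNA of these genes. Of 10 motor neuron genes 6 were lower in replicate 1, while the sum was 114 TPM in replicate 1 and 105 in replicate 2. The test called 1 as lower and 1 as higher in replicate 1, and the higher one was Lhx3, a factor of somatic motor neurons, with 12.5 TPM in replicate 1 and 4.26 in replicate 2. Isl1, which belongs to both lists, had 42.4 and 35.1 TPM and did not pass the test. Of 6 Schwann cell genes 5 were lower in replicate 1, summing to 26.6 TPM in replicate 1 and 33.15 in replicate 2, and 2 were called lower. No gene of these 3 lists was without a count in both libraries.

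**Figure D5:**
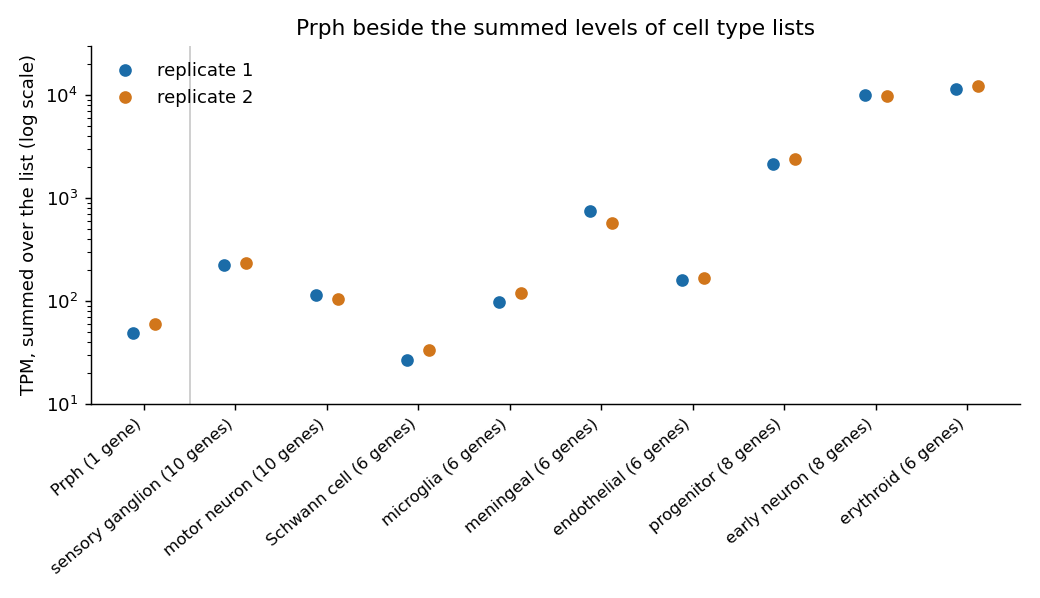
TPM on a log axis of Prph, and summed over the genes of each of 9 cell type lists, in replicate 1 (blue) and replicate 2 (orange). Prph lies lower in replicate 1, as do the Schwann cell sum at 26.6 and 33.15 TPM and the microglia sum at 98.5 and 119, while the meningeal sum lies higher at 744 and 576.

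The other cell type lists are given as sums and calls, to be read against the 12.6% of all genes and 16.5% of genes with 1000 counts or more that were called, a share that reached 58.1% at the depth of Ina. The sums in replicates 1 and 2 were 98.5 and 119 TPM for 6 microglia genes, of which 3 were called lower in replicate 1. They were 2136 and 2386 TPM for 8 progenitor genes, with 5 called lower and 2 higher, and 11375 and 12315 TPM for 6 erythroid genes, with 5 called lower and 1 higher. For 6 endothelial genes the sums were 159 and 167 TPM, and the 1 call, lower in replicate 1, is near the background. The 6 meningeal genes summed to 744 and 576 TPM, and 4 were called higher in replicate 1. The 8 early neuron genes summed to 9906 and 9693 TPM, and 5 were called, all higher in replicate 1. The shares called at the depth of Nefl (51.4%) and Ina (58.1%) count either direction, so they are no background for calls in 1 direction. Of the early neuron genes not called, Elavl3 and Nhlh1 lie below that depth and Stmn1 above it. Like Prph, the sensory ganglion, Schwann cell, microglia, progenitor, erythroid and endothelial sums were lower in replicate 1. The motor neuron, meningeal and early neuron sums were higher. A few genes can set the direction of a sum. The motor neuron sum was raised mainly by Lhx3 (12.5 against 4.26 TPM, replicate 1 first) and Isl1 (42.4 against 35.1). In scaled counts the log2 ratios of Lhx3 and Isl1 were 1.57 and 0.09, and Isl1 did not pass the test. Still, 6 of the 10 motor neuron genes had a lower TPM in replicate 1. Most of the progenitor sum was Fabp7 (1787 against 2042 TPM). Of the 8 progenitor genes 6 were lower in replicate 1, while Hes5 was higher (150 against 125 TPM). Which cell type list bears on the Prph difference was not tested.

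The neuronal filament genes were next set beside the other filament genes of the tissue. Together they reached 1425 ± 19.1 TPM, against 661 ± 15.3 for 6 other intermediate filament genes of nervous tissue and muscle (SD, n = 2), of which 4 were detected. Vim, the vimentin gene of progenitors and mesenchyme, held most of that second sum, with 613 ± 17.4 TPM (SD, n = 2). Between the libraries 3 of the 6 were called lower and 1 higher in replicate 1. The share called was 12.6% of all genes tested, 16.5% of those with 1000 counts or more and 38.2% at the depth of Nefm. Vim was among those called, on 15751 and 19652 counts in replicates 1 and 2. Ina stood at 0.92 ± 0.0081 of the Vim level and Nefl at 0.825 ± 0.0245 (SD, n = 2). Nes, which encodes the progenitor filament nestin, had 41.4 ± 3.22 TPM (SD, n = 2), below Prph, which exceeded it 1.11-fold in replicate 1 and 1.54-fold in replicate 2. Synm, the linker filament synemin, had 3.73 ± 0.417 TPM, and Nefh stood at 0.715 ± 0.0402 of that level (SD, n = 2). Des, desmin of muscle, had 1.88 ± 0.594, and Gfap, the astrocyte filament, 0.12 ± 0.0283 TPM (SD, n = 2). The 3 lamin genes, which form the nuclear filament meshwork, ran from 27.7 TPM for Lmna to 77.8 for Lmnb1, and none was called between the libraries. Of 7 keratin genes of epithelia 3 were detected, led by Krt10 at 9.80 ± 1.05 TPM (SD, n = 2), and 2 were called lower and 1 higher in replicate 1.

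Among neuron genes, Ina, Nefl, Nefm and Prph lay within the range of 8 early neuron genes, 7.29 TPM for the transcription factor gene Nhlh1 to 5628 TPM for the tubulin regulator gene Stmn1, and Nefh lay below it. These 8 genes were all detected with a median of 736 TPM. Of 8 genes of maturing neurons 7 were detected, with a median of 54.6 TPM over the 8. Between the libraries 1 of them was called in each direction, where 12.6% of all genes tested were called. Both lists span a wide range, and that of the maturing neuron genes, 0.205 to 579 TPM, holds every member, Nefh included. The median of all genes with a count was 3.175 TPM. Ina had 2.31 ± 0.0889 times the level of Dcx, a microtubule protein of migrating neurons, and 1.58 ± 0.026 times that of Map2, a dendritic microtubule protein (SD, n = 2). Against Tubb3, the neuronal beta-tubulin, Ina reached 0.374 ± 0.0192, Nefl 0.335 ± 0.0102 and Nefm 0.198 ± 0.0065 of its level (SD, n = 2). Prph reached 0.0361 ± 0.00667 and Nefh 0.00176 ± 0.000155 of it (SD, n = 2). Thy1, a surface protein of mature neurons, was the undetected gene of maturing neurons at 0.205 ± 0.0354 TPM (SD, n = 2).

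The machinery that moves, modifies and removes neurofilaments was present. All 10 partners in transport and crosslinking were detected, from Klc1, a kinesin light chain, at 472 ± 11.3 TPM to Plec, the crosslinker plectin, at 20.1 ± 0.0566 (SD, n = 2). Of these partners 2 were called higher in replicate 1, beside 12.6% of all genes tested that were called in either direction. Kif5a, a kinesin heavy chain known to carry neurofilaments, had 69.2 ± 1.37, Kif5c 148 ± 4.96 and Dst, a linker of filaments to other cytoskeleton, 30.6 ± 0.276 TPM (SD, n = 2). All 10 genes of enzymes that act on the tails, or of their activators, were detected. They included Gsk3b, a kinase of the tail repeats, at 127 ± 0.382, and Ppp2ca, a phosphatase, at 99.3 ± 0.00707 TPM (SD, n = 2). Cdk5, another tail kinase, had 57.9 ± 0.834 and its activator Cdk5r1 80.4 ± 6.70 TPM (SD, n = 2). Cdk5r1 was the 1 gene of these 10 that the test called between the libraries, lower in replicate 1 at 75.7 TPM against 85.2 in replicate 2. All 8 turnover and mRNA binding genes were detected. Uchl1, a neuronal ubiquitin hydrolase, had 909 ± 24.5, Tardbp, whose human product binds the light subunit mRNA, 193 ± 3.23, and Trim2, a ubiquitin ligase for the light subunit, 105 ± 3.06 TPM (SD, n = 2). None of this list was called between the libraries.

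For a sense of scale, the protein coding genes nearest to each member in level were found by Euclidean distance of log2(TPM + 1) over the 2 libraries. The nearest to Ina were Atp5j2, a subunit of ATP synthase, at 565.3 and Rps27a, a ubiquitin and ribosomal protein fusion, at 562.0 mean TPM. Those nearest to Nefl were the ribosomal protein gene Rpl34 at 503.8 and Dbn1, the actin-binding drebrin, at 503.7. Beside Nefm stood Banf1, a chromatin protein gene, at 299.1 and Map1lc3b, an autophagosome protein gene, at 299.1. Prph had as neighbours Pafah1b1, the dynein regulator LIS1, at 54.5 and Enpp2, autotaxin, at 55.4. Since likeness was measured over both libraries, the nearest genes share the member's difference between them by construction. Nefh had Chml, a Rab escort protein gene, at 2.67 and Arhgap27, a GTPase activator gene, at 2.65 mean TPM.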

How the data were processed

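Total RNA of embryonic hindbrain was measured in 2 libraries of 1 group. The authors deposited estimated counts (expected counts), TPM, FPKM, posterior mean TPM, interval bounds and the percent of a gene's TPM per transcript (IsoPct), on mm10 with GENCODE M4, per the file headers and notes. The program and strand setting were not stated in any source used here. Symbols came from GENCODE M21 (GRCm38) by identifier; 42462 of 43346 genes matched.

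Only Ensembl genes entered totals. Counts were rounded; TMM factors came from edgeR 4.0.16 (R 4.3.3), alternative size factors from DESeq2 1.42.0. A binomial test (SciPy 1.17.1) ran on genes reaching 10 counts over both libraries, p-values adjusted by Benjamini-Hochberg at 0.05. It was also run on simulated counts with no replicate spread, as the test assumes. That run cannot show how the test behaves where replicates differ by more than counting error. With 1 group there is no contrast for a quasi-likelihood test. Level ratios used log2(TPM + 1), a scale that shrinks the differences of low genes. Members and 18 gene lists (128 symbols) were chosen with earlier results of these data known. Named are the members, the 3 highest and the lowest detected genes of a list, filament, partner, kinase and turnover genes, and the 2 genes nearest each member; Tlx3, Lhx3, Dcx and Thy1 were added after their values were seen. Alternatives were other pseudocounts, units, scalings, filters and leaving out each library. Protein sequences were not used here, and some listed genes and sequences are not reported here.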

Additional observations from a re-analysis of the deposited data

How the results depend on the processing

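The order Ina, Nefl, Nefm, Prph, Nefh held under each alternative run for it: pseudocounts of 0.1 and 10, posterior mean TPM, FPKM, CPM and each library alone. With the posterior mean TPM the mean levels of Ina, Nefl and Nefm were 549.3, 492.7 and 290.95, and with TPM rescaled to Ensembl genes those of Ina, Nefl, Nefm and Nefh were 598.0, 536.4, 316.7 and 2.82. The log2 ratio of Nefl over Nefm was 0.74 with a pseudocount of 10, and that of Prph over Nefh was 4.30 with 0.1, 2.34 with 10 and 3.71 with FPKM. With CPM, which is not divided by length, the log2 ratios were 0.094 for Ina over Nefl, 0.78 for Nefl over Nefm, 3.39 for Nefm over Prph and 2.96 for Prph over Nefh; Prph transcripts are the shortest of the members. The log2 ratio of replicate 1 over replicate 2 of Nefl, which passed no test, was 0.0027 with TPM. The calls of Prph and Ina between the libraries held under total counts, DESeq2 size factors and disjoint TPM intervals, and the number of called genes stayed within 1.5 times under each filter and scaling run. No paired analysis was possible because there is 1 group. Depth limits Nefh most, at 205 and 262 counts.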
